A study of Mus musculus with 28 samples.

Results

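Subclone 3 of the mouse kidney cell line mIMCD-3 was compared with 4 sister subclones, numbered 1, 2, 4 and 5, to find the genes and functions in which this clone differed. The members were the 4 RNA sequencing libraries of subclone 3 and the 16 libraries of the other subclones, 4 per subclone, out of 28 libraries in the series. All groups were unedited wild-type cells without treatment, from a line that was established from the inner medullary collecting duct of an SV40-transgenic mouse. WT5 is a monoclonal wild-type line grown from 1 sorted cell, and each subclone was in turn grown from 1 sorted WT5 cell and expanded for several weeks. RNA was taken from all lines 4 days after the cultures had become confluent. Subclone 3 is therefore 1 clone set against 4 clones, and the comparison asked how far sister clones of a monoclonal line differ in their transcriptomes. The 4 WT5 libraries, which lie in a separate table, were used only to tell a gain from a loss and entered no test, and the 4 polyclonal wild-type libraries were not used here. The study's methods call replicates biological while a figure legend calls them technical, so the p-values measure only the spread between the libraries of a clone. With 1 subclone against 4, a permutation of the 5 subclones could not go below a one-sided p of 0.2.

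The collecting duct adjusts the final salt, water and urea content of urine through channels and transporters in a tight, polarized epithelium, and mIMCD-3 cells are widely used as a model of it. When a single cell is expanded, whatever expression state it carried, including genes that were switched on or off in a heritable manner, is passed to the whole clone. A gene can also change later, while the clone is expanded, and RNA from a whole clone does not show which of these took place.

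Expression was given as TPM, a transcript abundance scaled to a fixed total in each library, which keeps no read depth, so no counting error could be attached to a value. Subclone 3 libraries had TPM above 0 for 16570 to 16917 genes, within the 16270 to 17004 of the other libraries. Pearson correlations of log2(TPM + 0.5) between subclone 3 libraries ran from 0.979 to 0.988, against 0.983 to 0.991 within the other subclones. Replicate 4 of subclone 3 correlated at most at 0.983 with the other libraries of its own subclone and at up to 0.986 with a library of another subclone. Results that were lost without this library are named, and the difference of Fos is given with and without it. Of 12 epithelial markers, 9 reached a mean of 1 TPM in subclone 3, and their sum ranged from 2211 to 2435 TPM in subclone 3 and from 2000 to 2500 TPM in the others. Epcam, the epithelial adhesion molecule, had a mean of 546 TPM in subclone 3, whereas Gata3 had 0.152 and Gata2 0.0825 TPM, so these collecting duct transcription factors were near 0. None of the 6 fibroblast, 5 endothelial and 5 intercalated cell markers reached a mean of 1 TPM, and their sums in subclone 3 were 0.46 to 0.8, 0 to 0.03 and 0.22 to 0.36 TPM, against 0.41 to 1.52, 0 to 0.09 and 0.08 to 0.72 TPM in the others. Of the proximal tubule and thick ascending limb markers only Lrp2, with a mean of 6.13 TPM, and Umod, with 2.73 TPM, were above 1 TPM, and Slc34a1 and Slc12a1 were at 0 in all libraries. The summed leukocyte markers, 30.4 to 48.5 TPM in subclone 3 and 28.4 to 55.6 TPM in the others, came almost entirely from Csf1r, with Cd3e and Lyz2 at 0 in all 20 libraries. In bulk RNA, fewer cells expressing a gene and less RNA per cell cannot be told apart.

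Of 12304 genes with a mean of at least 1 TPM on either side, 46 (0.374%) were called. A call required a Benjamini-Hochberg adjusted p below 0.01 in limma and a difference of at least 2-fold. The fold was taken on log2(TPM + 0.5), between subclone 3 and the mean of the other 4. In mean TPM some called genes differed by less, such as Enox2 by 1.35-fold and Cdcp1 by 1.44-fold. In subclone 3, 21 of the 46 genes (0.171%) were higher and 25 (0.203%) were lower. By the same rule, each set against its own sister clones, subclone 1 had 66 called genes (0.538%), subclone 2 had 55 (0.448%), subclone 4 had 119 (0.963%) and subclone 5 had 87 (0.708%). A mean over 4 clones can be moved by 1 of them, so each gene was also tested against each sister clone. Subclone 3 differed by both limits from subclone 2 in 80 genes (0.65%) and from subclone 1 in 81 (0.658%). The share was 0.886% (109 genes) against subclone 5 and 1.09% against subclone 4. Only 10 of the 46 genes (0.0813% of those tested) passed both limits against all 4, 6 of them higher (0.0488%) and 4 lower (0.0325%) in subclone 3, and these are called set apart here. Subclone 1 had 15 such genes (0.122%) and subclone 2 had 16 (0.13%). More were found for subclone 5 with 20 (0.163%) and subclone 4 with 34 (0.275%). Another 12 were apart from 3 of the sister clones, 19 from 2, and 5 from 1 alone. The 4 libraries of subclone 3 lay entirely above or below the 16 others for 22 of the 46 genes, and for 114 (0.927%) of all genes tested. When the 16 libraries were treated as 1 group, so that the differences among the sister clones entered the error, 19 genes were called, and these included all 10 set-apart genes. In that fit libraries, not clones, were still the unit. The set-apart genes had been chosen for a difference from every sister clone, which favours their call there.

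**Figure D1:**
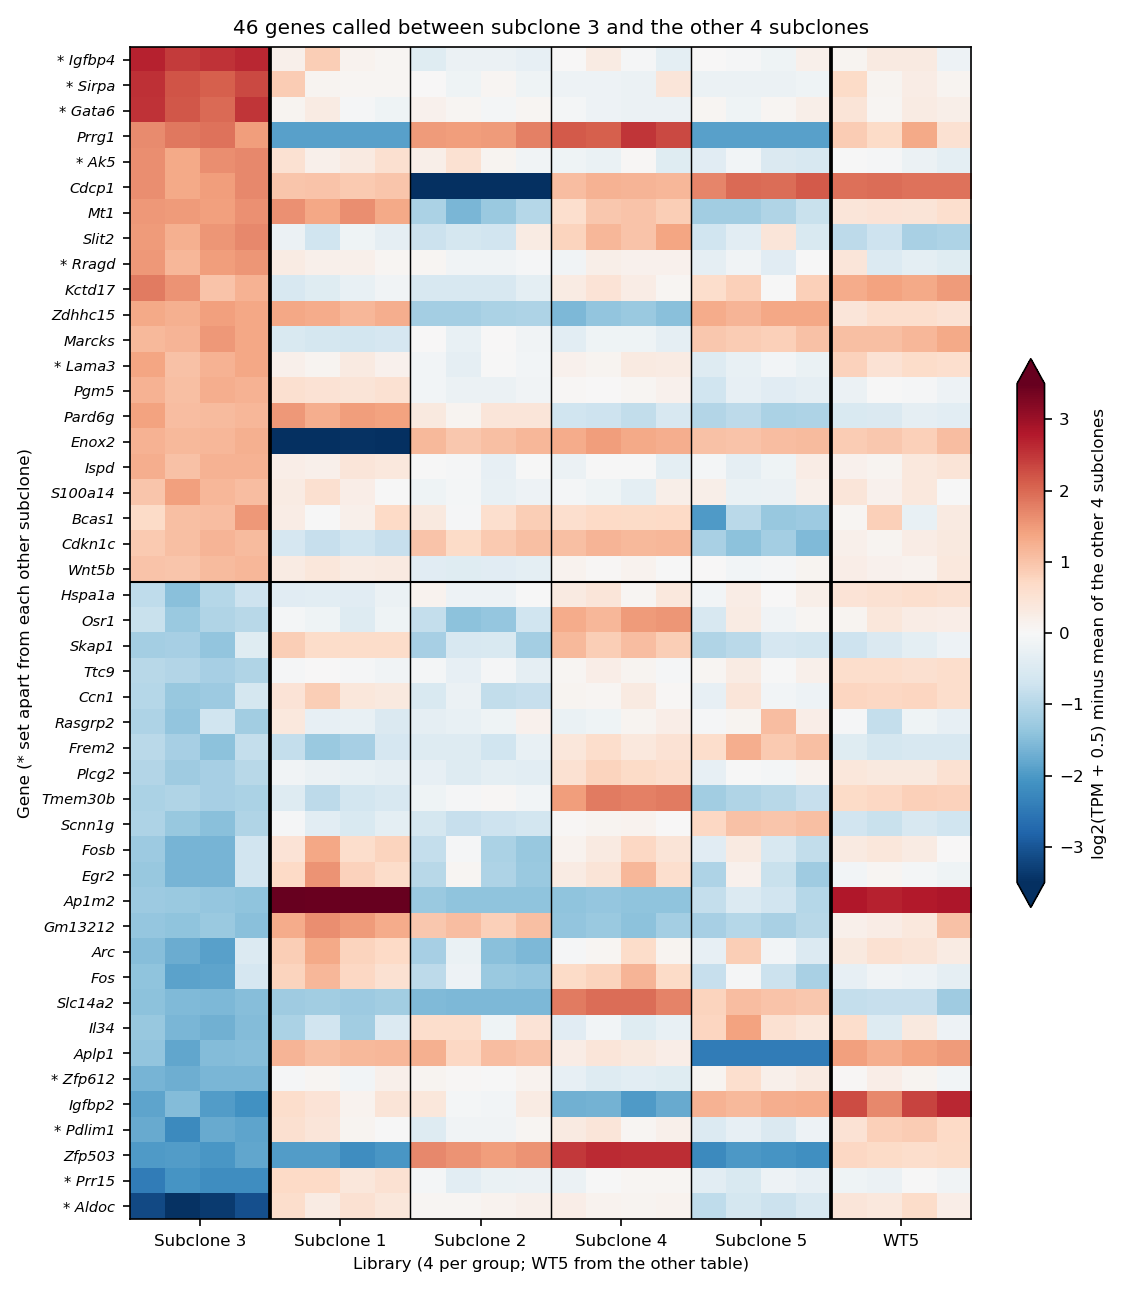
Heat map of the 46 called genes (vertical axis, from the most increased to the most decreased, set-apart genes starred) in the 4 libraries of each subclone and of WT5 (horizontal axis). Colour gives log2(TPM + 0.5) minus the mean of the 4 other subclones, on a scale ending at ±3.5, and shows that subclone 3 stands apart from every other subclone in the 10 starred genes, while in genes such as Zfp503 and Prrg1 it shares its level with some of them.

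The genes set apart by a lower level were Aldoc, Prr15, Pdlim1 and Zfp612. Each lies on a different chromosome and each was expressed in WT5 at a level near that of the sister clones or above it. The RefSeq promoter windows (GRCm38.p6), 250 bases before to 50 bases after the start, are shown for the 3 of these genes that the promoter table holds, because they are the start regions of the genes lowered in this clone. CpG dinucleotides, the sites of DNA methylation in mammals, are in capitals.
Aldoc promoter: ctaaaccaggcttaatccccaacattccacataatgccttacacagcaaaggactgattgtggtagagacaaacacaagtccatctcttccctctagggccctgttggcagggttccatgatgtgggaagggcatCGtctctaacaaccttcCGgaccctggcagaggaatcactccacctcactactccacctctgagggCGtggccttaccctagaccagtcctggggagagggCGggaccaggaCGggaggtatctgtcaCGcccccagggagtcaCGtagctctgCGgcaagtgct
Prr15 promoter: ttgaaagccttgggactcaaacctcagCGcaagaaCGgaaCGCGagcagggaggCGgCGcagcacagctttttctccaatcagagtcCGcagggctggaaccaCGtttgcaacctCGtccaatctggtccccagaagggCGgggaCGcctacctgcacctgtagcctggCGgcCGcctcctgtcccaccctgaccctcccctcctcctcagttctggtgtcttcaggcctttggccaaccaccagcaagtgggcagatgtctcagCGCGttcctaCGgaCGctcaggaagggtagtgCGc
Pdlim1 promoter: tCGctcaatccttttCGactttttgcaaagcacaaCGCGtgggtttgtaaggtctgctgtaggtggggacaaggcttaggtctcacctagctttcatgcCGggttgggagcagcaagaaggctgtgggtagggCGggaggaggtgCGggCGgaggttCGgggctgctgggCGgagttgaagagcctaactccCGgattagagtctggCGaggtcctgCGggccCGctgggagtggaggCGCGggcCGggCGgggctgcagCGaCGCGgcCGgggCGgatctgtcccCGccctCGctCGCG
The windows lie at chr11:78322823-78323122 (+), chr6:54326651-54326950 (+) and chr19:40271567-40271866 (-), and hold 8 CpG in Aldoc, 18 in Prr15 and 27 in Pdlim1. The Prr15 window lies inside the gene interval given below, which begins at 54325835, so RefSeq and the gene annotation used here place its start differently. The observed to expected CpG ratio was 0.34 in Aldoc, 0.63 in Prr15 and 0.89 in Pdlim1. Zfp612 is not in that table. The median was 0.789 over the 9159 tested genes with an entry, and 8.19% of these had a lower ratio than Aldoc.

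Aldoc (ENSMUSG00000017390, chr11:78322968-78327781, GRCm38) encodes aldolase C, a glycolytic enzyme that splits fructose 1,6-bisphosphate and is best known from brain. It showed the largest difference of all called genes. Subclone 3 libraries had 0.51, 0.32, 0.38 and 0.57 TPM. The 16 other libraries ran from 4.35 over a median of 9.27 to 13.3 TPM, so no library came near subclone 3. The means were 0.445 ± 0.115 TPM (SD, n = 4) in subclone 3 and 5.03 ± 0.55 TPM (SD, n = 4) in subclone 5, the lowest of the sister clones. On the log2(TPM + 0.5) scale, which is used for all differences given here, subclone 3 differed by -3.26 ± 0.08 (SE, adjusted p = 2.36e-16), and the mean TPM was 20.01 times lower. WT5 had 11.7 ± 1.5 TPM (SD, n = 4). Among 38 tested glycolysis and hypoxia genes, Aldoc was the only one called, and the neighbouring genes Spag5 and Pigs had log2 differences of -0.03 and -0.15.

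Prr15 (ENSMUSG00000045725, chr6:54325835-54330201) encodes a small proline-rich protein. Its 4 libraries in subclone 3 gave 1.08, 1.57, 1.42 and 1.43 TPM, and the 16 others 5.53 to 13.6 TPM with a median of 7.47. The log2 difference was -2.22 ± 0.08 (SE, adjusted p = 5.95e-13), with WT5 at 7.5 ± 0.46 TPM (SD, n = 4). Of its longest transcript, a share of 11.3% of the 50-base stretches also occurs in transcripts of other genes, on either strand, so part of its reads could be assigned differently. The next tested gene on the left, Chn2, had a log2 difference of -0.32 (adjusted p = 0.000632), and Wipf3 on the right had -0.34 (adjusted p = 0.126).

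Pdlim1 (ENSMUSG00000055044, chr19:40221173-40271842) encodes a PDZ and LIM domain protein that links to the actin cytoskeleton. Subclone 3 had 3.84, 2.64, 3.82 and 3.61 TPM. The other libraries ran from 9.94 over a median of 14.6 to 21.1 TPM and did not overlap with subclone 3, which was lower by a log2 difference of -1.90 ± 0.11 (SE, adjusted p = 2.44e-10). WT5 was higher than every subclone mean, at 23.99 ± 2.8 TPM (SD, n = 4).

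Zfp612 (ENSMUSG00000044676, chr8:110079746-110092741) encodes a zinc finger protein and was expressed at a low level throughout. It was listed at 0.03, 0, 0.04 and 0.04 TPM in subclone 3. The 16 other libraries had 0.71 to 1.97 TPM with a median of 1.2, and WT5 had 1.23 ± 0.16 TPM (SD, n = 4). This gave a log2 difference of -1.64 ± 0.10 (SE, adjusted p = 7.41e-10), and the groups did not overlap. With the pseudocount raised from 0.5 to 1 TPM, Zfp612 was still called but no longer passed the limit against each sister clone. Il34, another gene lower in subclone 3, lies 649 kb away on chromosome 8. The 3 tested genes between them, Cmtr2, Vac14 and Mtss1l, had log2 differences from -0.19 to 0.07 and did not pass the test.

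The 6 genes set apart by a higher level were Igfbp4, Sirpa, Gata6, Ak5, Rragd and Lama3. All were expressed at low levels, with means from 2.03 to 4.42 TPM in subclone 3, and none of the 6 entered the test when a mean of at least 5 TPM was required. Igfbp4 and Rragd have an entry in the promoter table and Sirpa, Gata6, Ak5 and Lama3 do not. The windows of the former are shown as the counterpart of the lowered genes.
Igfbp4 promoter: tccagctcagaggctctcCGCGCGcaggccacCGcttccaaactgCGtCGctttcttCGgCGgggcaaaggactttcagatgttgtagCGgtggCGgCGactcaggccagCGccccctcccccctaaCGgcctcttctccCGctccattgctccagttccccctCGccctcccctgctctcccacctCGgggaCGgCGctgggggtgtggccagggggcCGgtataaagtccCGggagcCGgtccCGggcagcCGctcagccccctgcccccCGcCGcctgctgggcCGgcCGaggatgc
Rragd promoter: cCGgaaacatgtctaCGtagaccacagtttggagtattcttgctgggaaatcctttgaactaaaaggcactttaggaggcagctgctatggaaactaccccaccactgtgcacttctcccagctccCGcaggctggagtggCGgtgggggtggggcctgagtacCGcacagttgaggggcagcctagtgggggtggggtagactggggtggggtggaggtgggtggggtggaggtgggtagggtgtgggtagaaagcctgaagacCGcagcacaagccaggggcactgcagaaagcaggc
The Igfbp4 window (chr11:99040994-99041293, +) holds 27 CpG at an observed to expected ratio of 0.72, and the Rragd window (chr4:32982748-32983047, +) 6 CpG at 0.25. Only 5.11% of the tested promoters had a lower ratio than Rragd. The letters AGATAA, 1 of the forms recognised by GATA factors, were searched on both strands, and other forms were not searched. AGATAA was in none of the 5 printed windows, in 1 of the 29 called genes with an entry and in 5.6% of the promoters of tested genes. At that share none in 5 windows was the likely outcome, so its absence is not read as a result.

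Igfbp4 (ENSMUSG00000017493, chr11:99041244-99054392) encodes a secreted protein that binds insulin-like growth factors. Subclone 3 libraries had 4.3, 3.51, 3.75 and 4.08 TPM. In the 16 others the gene had 0.05 to 0.84 TPM with a median of 0.23. The log2 difference of 2.58 ± 0.14 (SE, adjusted p = 1.82e-10) was the largest increase, and WT5 had 0.318 ± 0.126 TPM (SD, n = 4). The adjoining tested genes Top2a and Smarce1 both had a log2 difference of 0.01.

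Sirpa (ENSMUSG00000037902, chr2:129592835-129632228) encodes a membrane receptor for CD47 that is best known from myeloid cells. The TPM values in subclone 3 were 2.91, 2.13, 1.95 and 2.35. The other libraries ran from 0 to 0.56 TPM with a median of 0.02, and the log2 difference was 2.29 ± 0.16 (SE, adjusted p = 5.46e-09). The leukocyte marker Ptprc was too low to be tested, at 0.03 to 0.11 TPM in subclone 3, and Cd68 and Csf1r, with log2 differences of -0.24 and -0.05 (adjusted p = 0.408 and 0.892), did not pass the test. WT5 had 0.213 ± 0.142 TPM (SD, n = 4).

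Gata6 (ENSMUSG00000005836, chr18:11052064-11085635) encodes a zinc finger transcription factor of endoderm and heart development. It had 2.92, 2.19, 1.84 and 2.86 TPM in subclone 3. None of the 16 other libraries exceeded 0.23 TPM, and the lowest had 0.02. Subclone 3 was higher by a log2 difference of 2.29 ± 0.13 (SE, adjusted p = 2.44e-10). WT5 had 0.215 ± 0.0755 TPM (SD, n = 4). This mean was within the range of the 16 other libraries but above each sister clone mean, the highest of which was 0.1225 TPM. In a test of unequal variances on 4 against 16 libraries, Gata6 was the only set-apart gene that lost its call.

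Lama3 (ENSMUSG00000024421, chr18:12333819-12583013) encodes the alpha 3 chain of laminin, a basement membrane protein, and lies 1248 kb from Gata6. Its libraries in subclone 3 had 2.96, 2.21, 2.62 and 2.91 TPM. The 16 others had 0.47 to 1.15 TPM with a median of 0.87, without overlap. The difference was 1.24 ± 0.10 on the log2 scale (SE, adjusted p = 3.16e-08). WT5 lay between, at 1.58 ± 0.195 TPM (SD, n = 4), about midway between the sister clones and subclone 3 on the log2 scale, so that WT5 does not place Lama3 as a gain. Lama3 was still called but no longer set apart without replicate 1 or 4 of subclone 3 or replicate 2 of subclone 4, and at a pseudocount of 1 TPM it was not called. The 6 tested genes between Gata6 and Lama3 had log2 differences from -0.11 to -0.01, and Ttc39c on the far side of Lama3 had 0.44 (adjusted p = 0.00206).

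Ak5 (ENSMUSG00000039058, chr3:152462815-152668360) encodes an adenylate kinase and had 2.12, 1.63, 2.14 and 2.23 TPM in subclone 3. The other libraries had 0.08 to 0.76 TPM with a median of 0.34. It was higher in subclone 3 by a log2 difference of 1.56 ± 0.13 (SE, adjusted p = 1.22e-07), and WT5 had 0.273 ± 0.083 TPM (SD, n = 4). Rragd (ENSMUSG00000028278, chr4:32983037-33022180) encodes RagD, a GTPase that passes amino acid signals to mTORC1 at the lysosome. It had 4.72, 3.61, 4.52 and 4.82 TPM in subclone 3, against 0.89 to 1.73 TPM with a median of 1.35 in the others. Here the log2 difference reached 1.42 ± 0.09 (SE, adjusted p = 1.98e-09), and WT5 had 1.14 ± 0.55 TPM (SD, n = 4). For both genes the groups did not overlap. At a pseudocount of 1 TPM, Ak5 no longer passed the limit against each sister clone.

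**Figure D2:**
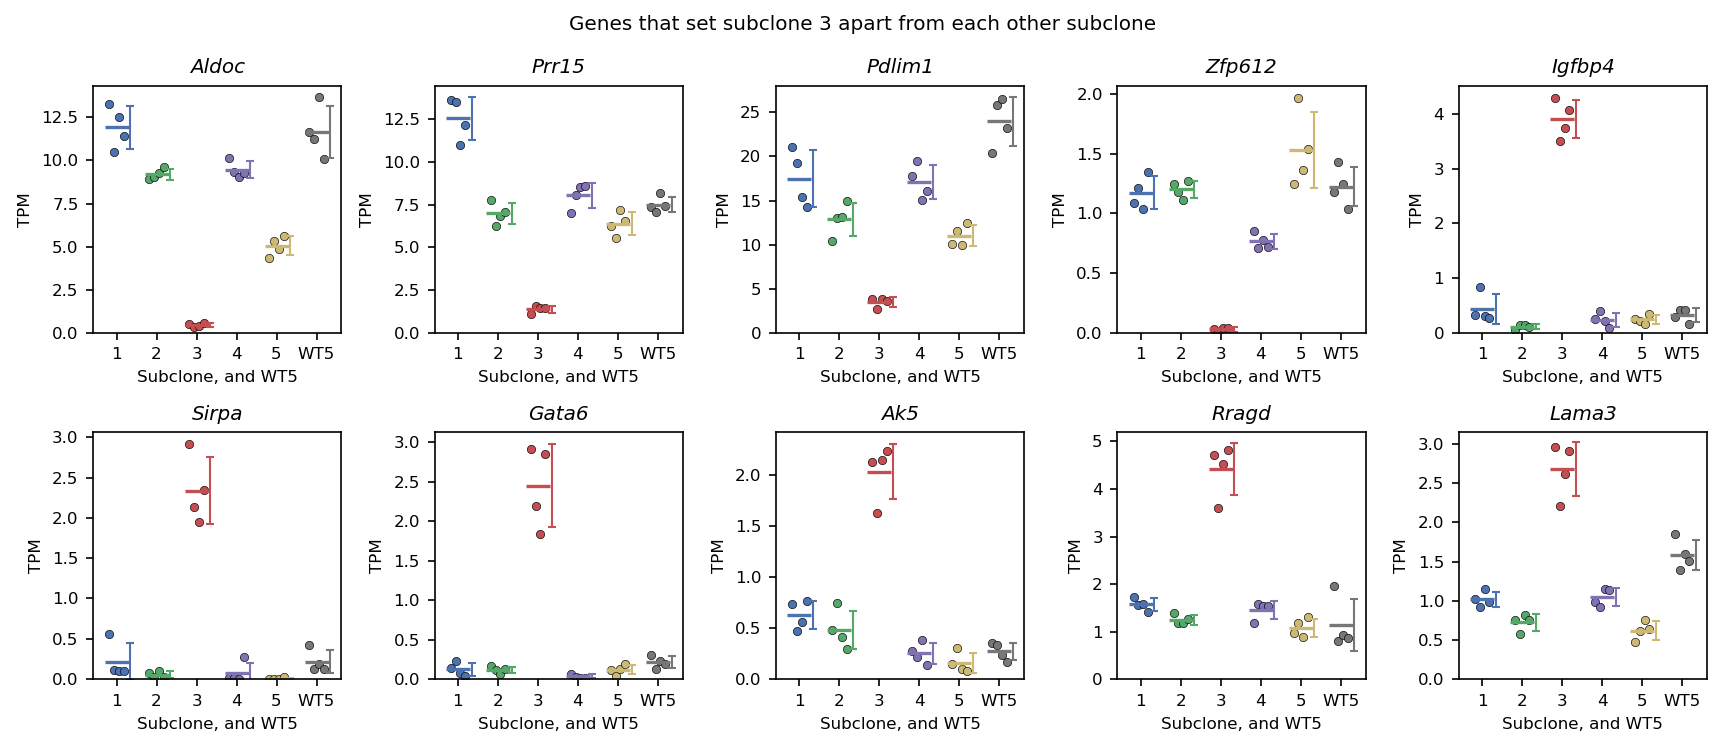
TPM (vertical axis) of the 10 set-apart genes in each library of subclones 1 to 5 and of WT5 (horizontal axis). Points are libraries, horizontal lines means and bars ± 1 SD (n = 4), and in every panel the 4 points of subclone 3 are separate from the 16 points of the other subclones.

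Along the chromosomes, the nearest tested gene on either side of each set-apart gene was examined. Of these 20 neighbours none was called, against 0.374% of all genes, and 2 passed the adjusted p alone, Chn2 and Ttc39c, against 3.45% of all genes, so that the counts are too small to be read as a result. The neighbours' log2 differences ran from -0.34 to 0.44. No called genes of the same direction were immediate neighbours among the genes tested.

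To separate gain from loss, the mean of WT5 on the log2 scale was placed on the line from the mean of the 4 sister clones (0) to subclone 3 (1). For 9 of the 10 set-apart genes, 5 higher and 4 lower, WT5 lay below 0.25 on that line, which includes genes such as Pdlim1 in which WT5 differed from the sister clones in the direction away from subclone 3. Lama3 lay at 0.51. These are levels from separately made tables set side by side, with no test. Among all 46 called genes WT5 lay below 0.25 for 33, from 0.25 to 0.75 for 9 and above 0.75 for 4, namely Kctd17, Marcks, Enox2 and Cdcp1. Where the sister clones disagree, their mean is the level of none of them and the placement does not tell gain from loss. In Ap1m2, for example, WT5 lay below 0 on the line although subclones 2, 4 and 5 were as low as subclone 3 or nearly so, and in Igfbp2 WT5 was above every subclone. In Enox2 and Cdcp1 a single sister clone at or near 0 lowered the mean. Kctd17 had 1.49 ± 0.49 TPM in subclone 3 and 1.42 ± 0.13 TPM in WT5 (SD, n = 4 each), but 0.28 TPM on average in the 16 other libraries.

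**Figure D3:**
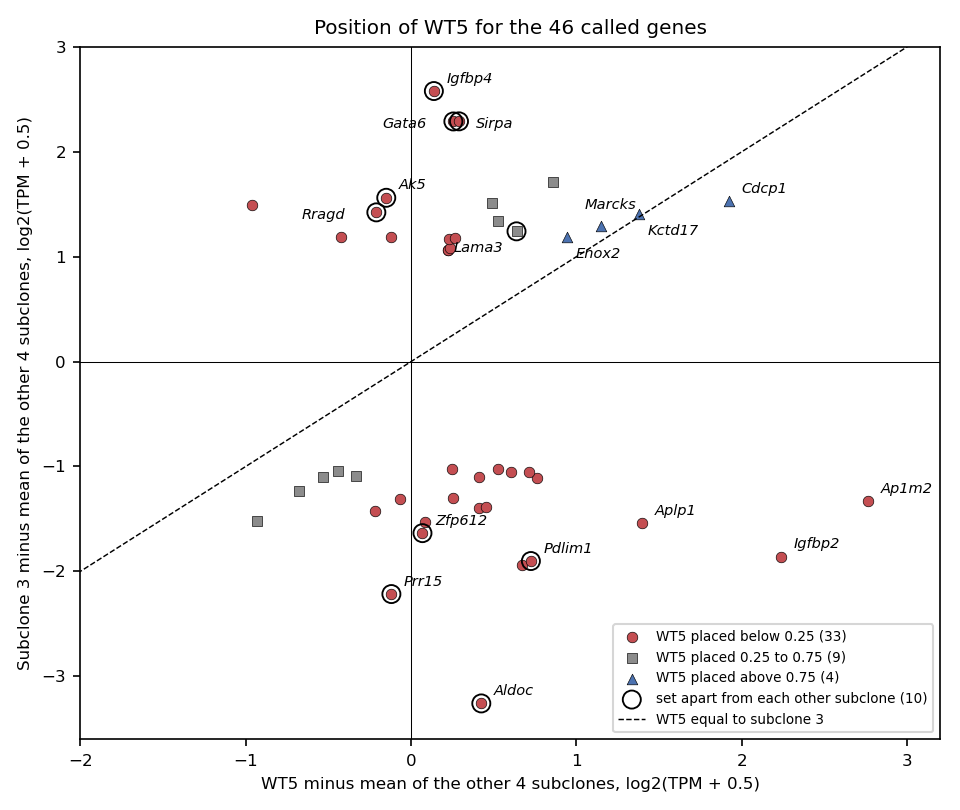
Log2 difference of subclone 3 (vertical axis) and of WT5 (horizontal axis) from the mean of the other 4 subclones for the 46 called genes. Points on the dashed line would have WT5 equal to subclone 3. Kctd17, Marcks, Enox2 and Cdcp1 (triangles) lie near it, and of the 10 circled set-apart genes Pdlim1 and Lama3 lie farthest from the vertical zero line, at 0.72 and 0.64.

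In 12 further genes subclone 3 was apart from 3 sister clones, and the exception differed from gene to gene. They are named here because of this count, after their values were seen. Ttc9, S100a14, Ispd and Pgm5 differed from the fourth clone as well, with adjusted p below 0.01 but less than 2-fold. Pgm5, a phosphoglucomutase-like protein of adherens junctions, had 28.2 ± 1.8 TPM in subclone 3, and the highest of the sister clones was subclone 1 with 17.4 ± 0.5 TPM (SD, n = 4 each). S100a14, a calcium-binding protein of epithelia, had 44.7 ± 6.4 TPM in subclone 3 against 15.3 to 28.7 TPM in the 16 others. Ispd, whose product makes the CDP-ribitol used to glycosylate dystroglycan, had 1.3 ± 0.1 TPM in subclone 3 and at most 0.56 TPM elsewhere, and 9.89% of its 50-base stretches are shared with other transcripts. Ttc9, a tetratricopeptide repeat protein, was lower, at 1.87 ± 0.13 TPM against 3.49 to 5.49 TPM. In these 4 genes too the libraries of subclone 3 did not overlap the others.

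In other genes of this group a sister clone was close to subclone 3 or beyond it. Igfbp2, another binding protein of insulin-like growth factors, was near 0 in subclones 3 and 4, with 0.1, 0.25, 0.06 and 0 TPM in subclone 3 and a mean of 0.138 TPM in subclone 4. The remaining subclones had 2.4, 1.9 and 4.57 TPM on average, and WT5 had 9.97 ± 2.68 TPM (SD, n = 4). Igfbp2 (log2 difference -1.86 ± 0.12 SE, adjusted p = 2.05e-09) and Igfbp4 therefore moved in opposite directions in subclone 3. Aplp1, an amyloid precursor-like membrane protein, had 0.56, 0.28, 0.46 and 0.48 TPM in subclone 3, was lower still in subclone 5, where all 4 libraries were listed at 0, and averaged 2.91 to 5.5 TPM in the other subclones. Slit2, a secreted guidance cue that signals through Robo receptors, was high in subclone 3 at 2.91 ± 0.44 TPM and in subclone 4 at 2.08 ± 0.46 TPM (SD, n = 4 each). Subclones 1, 2 and 5 had 0.46, 0.432 and 0.53 TPM, and WT5 0.122 TPM. Marcks, a protein kinase C substrate at the plasma membrane, was at 1.88 ± 0.28 TPM in subclone 3 and 1.32 ± 0.11 TPM in subclone 5 (SD, n = 4 each).

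Il34 encodes a cytokine that acts through the receptor Csf1r. Subclone 3 had 2.03, 1.62, 1.49 and 1.73 TPM, below every one of the 16 other libraries, which ran from 2.26 to 16.4 TPM. Subclone 3 was lower by a log2 difference of -1.53 ± 0.16 (SE, adjusted p = 2.42e-06), and against subclone 1 alone it was -0.66 (adjusted p = 0.0849). Csf1r itself had 38.7 TPM in subclone 3 and 40.0 TPM in the others on average.

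Among the 24 genes apart from 2 sister clones or 1, several were close to all or none, and subclone 3 shared its level with other clones. Zfp503, a transcriptional repressor, had 0.12 TPM in subclone 3, 0.085 in subclone 1 and 0.0525 in subclone 5, but 6.6 TPM in subclone 2 and 13.6 TPM in subclone 4. Ap1m2, the epithelial subunit of the AP-1 clathrin adaptor that sorts proteins to the basolateral membrane, had 14.8 ± 0.5 TPM in subclone 1 and 8.53 ± 0.37 TPM in WT5 (SD, n = 4 each). In subclone 3 it was listed at 0.05, 0.04, 0.02 and 0 TPM, and subclones 2, 4 and 5 averaged 0.01, 0.005 and 0.297 TPM. Prrg1, a vitamin K-dependent membrane protein, was listed at 0 in all libraries of subclones 1 and 5 and had 5.71 ± 0.82 TPM in subclone 3 (SD, n = 4). Enox2 was near 0 in subclone 1 alone (0.0025 TPM against 12.2 in subclone 3) and Cdcp1 was listed at 0 in subclone 2 alone (23.9 TPM in subclone 3), so in these genes the called difference came from a sister clone. The palmitoyltransferase gene Zdhhc15 split the clones, at 6.06, 5.74 and 5.86 TPM in subclones 3, 1 and 5 and at 0.667 and 0.46 TPM in subclones 2 and 4.

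The other genes apart from 2 sister clones or 1 included Mt1, Pard6g, Frem2, Skap1, Tmem30b, Plcg2, Rasgrp2 and Bcas1. Mt1, a metallothionein that binds zinc and copper, had 146 to 165 TPM in subclone 3 and a similar mean of 151 ± 16 TPM in subclone 1 (SD, n = 4), whereas subclones 2 and 5 had 22.6 and 25.6 TPM. Pard6g, a PAR6 protein of the apical polarity complex, was likewise high in subclones 3 and 1, at 3.07 and 3.68 TPM, and averaged 0.458 and 0.265 TPM in subclones 4 and 5. Bcas1 was clearly apart only from subclone 5, with 7.81 ± 2.00 against 1.03 ± 0.42 TPM (SD, n = 4 each). Plcg2, a phospholipase C that produces the second messengers IP3 and diacylglycerol, was below all 16 other libraries, with 1.44 to 1.85 TPM against 2.83 to 7.43 TPM, at a log2 difference of -1.10 ± 0.08 (SE, adjusted p = 5.46e-09). It differed from each sister clone at an adjusted p below 0.01, though by less than 2-fold from subclones 1 and 2. Rasgrp2, an exchange factor for RAP1, also did not overlap, with 1.89 to 3.37 TPM against 3.86 to 12.5 TPM. Tmem30b, a flippase subunit, was low in subclones 3 and 5 (0.397 and 0.465 TPM) and high in subclone 4 (5.88 TPM). Frem2, an extracellular matrix protein of basement membranes, and Skap1, an adaptor known from T cells, had means of 0.61 and 0.397 TPM in subclone 3 and overlapped with the other libraries.

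Across the 46 genes the mean of subclone 3 was the most extreme of the 5 subclone means in 36 and not in 10. The genes were chosen for a difference of subclone 3, which favours a high count, so it is not read as a result. Among the lowered genes, 12 of 25 had a mean under 1 TPM in subclone 3, and among the raised genes 6 of 21 were under 1 TPM in every sister clone. These genes passed the filter of 1 TPM only through the side where they were high. This favours such counts, so they are not read as a result. Of the 46 genes, 31 shared no 50-base stretch with another gene, and 6 shared over 5%. Gm13212, a predicted zinc finger gene, shared 65.1% and Hspa1a, an inducible HSP70 gene, shared 66.3%, so their differences (log2 -1.39 and -1.02) are uncertain. Cdkn1c shared 26.6% and Bcas1 11.9%.

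Immediate-early genes are induced by growth factors and stress within minutes through ERK and other pathways. Fos, Fosb and Egr2 were called lower in subclone 3 among 19 tested genes of the ERK feedback list, none was called higher, and 7 of 19 passed the adjusted p, all lower, against 3.45% of all genes tested. The list's median log2 difference was -0.26, against -0.02 over all genes. Arc and Ccn1, which are induced in a similar way, are not on that list, were called lower as well and were joined to it after their values were seen. Fos, a subunit of the AP-1 transcription factor, had 83.3, 60.0, 61.3 and 148 TPM in subclone 3. In the other libraries it ran from 86.5 over a median of 266 to 503 TPM, so that replicate 4 of subclone 3 overlapped with them and the other 3 libraries did not. The log2 difference was -1.42 ± 0.22 (SE, adjusted p = 0.000249) with all libraries and -1.70 (adjusted p = 3.05e-05) without replicate 4.

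The 5 genes shared one pattern over the libraries. Replicate 4 was the highest of the subclone 3 libraries in all 5, and each sister clone likewise had 1 library that was the highest in all 5 genes. That library was replicate 2 in subclones 1, 2 and 5 and replicate 3 in subclone 4. Whether libraries with the same number were handled together is not stated. Subclone 2 was the most similar to subclone 3, with Fos at 122 ± 51 TPM against 88.0 ± 41.1 TPM (SD, n = 4 each). Fos, Fosb and Egr2 passed both limits only against subclones 1 and 4. In limma against subclone 5, their log2 differences were -0.74, -0.93 and -0.57 (adjusted p = 0.115, 0.0391 and 0.33). Against subclone 2 alone the log2 difference was -0.29 for Arc (adjusted p = 0.729) and -0.45 for Ccn1 (adjusted p = 0.22), and none of the 5 genes was set apart from every sister clone. WT5 had 190 ± 12 TPM of Fos and 197 ± 14 TPM of Arc (SD, n = 4 each), above all subclone 3 libraries. Ccn1, a matricellular protein and a target of the Hippo effector YAP, had 528, 425, 440 and 690 TPM in subclone 3, and Ccn2, of the same family, had a mean of 271 ± 55 TPM (SD, n = 4) and a log2 difference of -0.83 (adjusted p = 1.16e-05). The calls of Fos and Fosb held without any single library, and the other 3 depended on single libraries. Egr2 was lost without replicate 1, 2 or 3 of subclone 3 (adjusted p = 0.0109, 0.0163 and 0.0189), Arc without replicate 3 (adjusted p = 0.0132), and Ccn1 fell below 2-fold without replicate 2 (log2 -0.97) or 3 (log2 -0.98). Without the libraries of subclone 1, Fos was the only one of the 5 still called, and none was called when the 16 libraries formed 1 group or in the unequal-variance test.

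**Figure D4:**
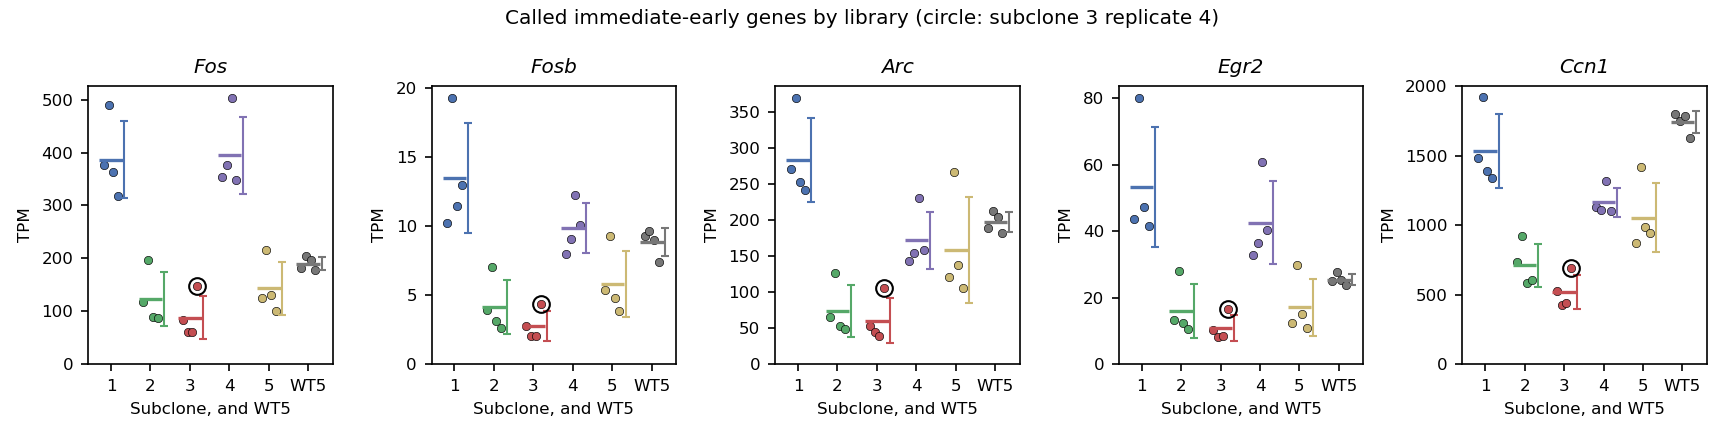
TPM (vertical axis) of Fos, Fosb, Arc, Egr2 and Ccn1 in each library of subclones 1 to 5 and of WT5 (horizontal axis). Points are libraries, lines means and bars ± 1 SD (n = 4). The circled replicate 4 is the highest of subclone 3 in each panel. Subclone 2 overlaps with subclone 3 in each panel, and subclone 5 does so for Fos, Fosb and Egr2.

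Of 36 functional gene lists, 14 had at least 1 called member and 22 had none. In no list were more than 3 members called, and a list with 1 called gene among 20 to 40 is described by that gene. The lists and their called members were read against 0.374% of all genes tested.

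Among ligands and matrix genes, the lists held Slit2 (1 of 42 guidance genes, higher), Wnt5b (1 of 27 Wnt genes, higher), Lama3 (1 of 22 integrins and laminins, higher), Igfbp4 and Igfbp2 (2 of 29 growth factor genes, in opposite directions), Il34 (1 of 23 chemokines and cytokines, lower) and Ccn1 (1 of 26 matrix genes, lower). Wnt5b, a ligand of the non-canonical Wnt pathway, had 12.5, 12.2, 13.4 and 13.9 TPM in subclone 3 and 4.34 to 7.93 TPM in the 16 others, without overlap. The log2 difference was 1.06 ± 0.05 (SE, adjusted p = 2.72e-11), WT5 had 7.04 ± 0.60 TPM (SD, n = 4), and the increase fell short of 2-fold against subclones 1 and 4 (log2 0.74 and 0.99). Without the libraries of subclone 2, Wnt5b was not called. Wnt10a, at 1.34 ± 0.04 TPM in subclone 3 (SD, n = 4), was apart from 3 sister clones but narrowly missed the 2-fold limit (log2 difference 0.998, adjusted p = 0.000101).

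Among transport genes of the collecting duct, 2 of 22 were called, both lower, and neither was set apart. Scnn1g, the gamma subunit of the epithelial sodium channel, had 3.55, 2.9, 2.58 and 3.59 TPM in subclone 3 and 4.37 to 17.1 TPM in the 16 others. The groups did not overlap, and the log2 difference was -1.23 ± 0.08 (SE, adjusted p = 4.64e-09), but the call was lost without the libraries of subclone 5. WT5 lay between at 4.85 ± 0.32 TPM (SD, n = 4). Slc14a2, the urea transporter of the collecting duct, was listed at 0.05, 0.01, 0 and 0.03 TPM in subclone 3 and was near 0 also in subclones 1 and 2, whereas subclone 4 had 4.99 and subclone 5 had 2.4 TPM. Slc14a2 also stood on the osmolyte list, where Hspa1a was the second called gene (2 of 24). Lcn2, a lipocalin secreted by stressed tubule cells and on the same list, was higher, with 280 to 302 TPM in subclone 3 and 125 to 232 TPM in the others, at a log2 difference of 0.69 (adjusted p = 6.13e-07). On the osmolyte list 7 genes passed the adjusted p, 2 higher and 5 lower.

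Of 34 tested kidney transcription factors, Zfp503 and Osr1 were called, both lower and both shared with other clones. Osr1, which marks the early kidney mesenchyme, had 0.307 ± 0.124 TPM in subclone 3 and 0.292 ± 0.203 TPM in subclone 2 (SD, n = 4 each). Cdkn1c, the imprinted CDK inhibitor p57, was called higher on the p53 and imprinted gene lists at 6.36 ± 0.51 TPM, with subclone 4 at 6.74 ± 0.30 TPM, subclone 2 at 5.66 ± 0.69 TPM and subclone 5 at 0.815 ± 0.174 TPM (SD, n = 4 each).

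Smaller differences were more common. At adjusted p below 0.01 alone, 425 genes (3.45%) differed, 186 higher and 239 lower, and 379 of these were under 2-fold. The median size of their log2 difference was 0.55. In the TGF-beta and BMP list 10 of 38 genes passed, 9 lower and 1 higher, without a called gene. The BMP-induced regulators Id1, Id3 and Id4 had log2 differences of -0.57, -0.76 and -0.78 (adjusted p = 1.11e-07, 1.84e-07 and 1.16e-05). Id3 had 14.8, 17.9, 18.6 and 19.9 TPM in subclone 3 against 19.5 to 38.9 TPM in the 16 others, so that 1 library overlapped, and subclone 2 was again the closest with a mean of 20.9 TPM. The ligands Bmp4, Bmp6 and Inhbb and the antagonist Fst were lower as well, and Nbl1, another antagonist, was higher. In the Notch list 5 of 20 genes passed, all lower, namely the ligands Jag1 and Jag2 and the targets Hes1, Hey1 and Nrarp, with log2 differences from -0.62 to -0.37. These shares lie above the 3.45% of all genes, but so did those of most lists, with 7 of 24 osmolyte genes and 6 of 23 chemokines and cytokines. No list was tested as a set. The TPM values were not centred, and 60.3% of all genes tested were lower in subclone 3, at a median log2 difference of -0.022. With median-centred libraries 26 genes were called higher and 24 lower, and with quantile normalization 21 and 37. The median log2 difference was -0.09 in the TGF-beta and BMP list and -0.14 in the Notch list. In tight junctions, 6 of 27 genes passed with 2 higher and 4 lower, and Cldn4, the most abundant, had 551.5 ± 37.5 TPM in subclone 3 (SD, n = 4) at a log2 difference of -0.42 (adjusted p = 3.01e-06).

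In 10 lists limma found no gene past the adjusted p. None of 46 cell cycle genes, 29 genes of the unfolded protein response, 34 of cholesterol synthesis, 33 NRF2 targets, 50 histones, 22 Hox genes, 24 amino acid transporters, 86 cytosolic ribosomal proteins and 15 mitochondrial transcripts passed. None of the 7 tested keratins passed either, with Krt8 at 568 ± 30 TPM and Krt18 at 705 TPM in subclone 3 and log2 differences of 0.03 and 0.04. At an unadjusted p below 0.05, 38 of the 346 tested genes of these 10 lists passed (11%), against 14.2% of all genes tested. In the cilium list 1 of 71 genes passed, Bbs4, at a log2 difference of -0.24 (adjusted p = 0.00296).

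Whole chromosomes were compared through the median log2 difference of their tested genes, centred on the median of all genes. The sizes in subclone 3 stayed at or below 0.034 on every chromosome except chromosome 6, where the median over 585 genes was 0.09. Without the libraries of subclone 4 the median of chromosome 6 was -0.0006, while subclone 4 itself stood at -0.34 against its sister clones. Chromosome 12 was at -0.02 in subclone 3 with all libraries, 0.07 without subclone 4 and 0.007 without subclones 4 and 5, and these 2 clones stood at 0.36 and -0.31. Subclones 1, 2 and 5 stood at 0.07, 0.08 and 0.07 on chromosome 6. These medians are a description with no test.

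**Figure D5:**
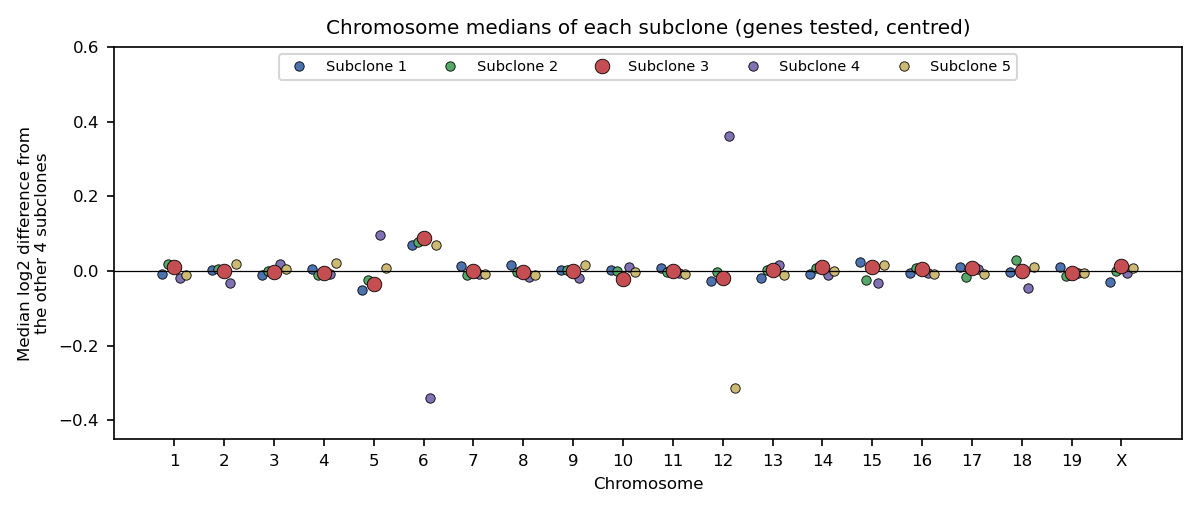
Median log2 difference of each subclone from the other 4 (vertical axis), centred on all genes tested, for each chromosome (horizontal axis). Subclone 3 (large points) stays near 0 on all chromosomes but chromosome 6, where subclones 1, 2, 3 and 5 lie together above 0 and subclone 4 lies at -0.34.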

How the data were processed

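RNA sequencing of mIMCD-3 cells was analysed from the deposited TPM. Per the methods, the authors discarded adapter-containing and poor reads, aligned the rest to GRCm38 with STAR 2.7.3a and an Ensembl annotation, and computed TPM per gene with RSEM 1.3.1. Strandedness was not given in the sources used here, so a gene and its antisense partner cannot be told apart. TPM keeps no depth, and the lowest value above 0 was 0.01 TPM. WT5 lies in a separate table and entered no test. The subclone table holds 45706 genes, of which 45143 matched a symbol and position (not the authors' annotation) in GENCODE M21. Subclone 3 was compared with the equally weighted mean of subclones 1, 2, 4 and 5 by limma 3.58.1 in R 4.3.3 on log2(TPM + 0.5), with 1 mean per subclone, for genes with a mean of at least 1 TPM on either side. Fold changes on this scale understate changes of low genes. Calls required a two-sided Benjamini-Hochberg adjusted p below 0.01 and 2-fold, and set-apart genes both limits in all 4 pairwise contrasts. The script was tested on simulated data. Named genes were the set-apart genes without overlap (at most 12 per direction) and up to 4 called members per list, and others were chosen after their values were seen. The comparison and lists were chosen with earlier results of these data known. Alternatives covered pseudocounts, filters, scaling, tests, thresholds and libraries left out. The placement of WT5 under other settings and chromosomes without subclones 4 and 5 were added after seeing the data.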

Additional observations from a re-analysis of the deposited data

Results flagged for a closer look

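In 86 groups of 4 libraries, namely subclone 3 for each called gene and every subclone for the set-apart genes, a library far from the other 3 was found in 5 groups, and chance flags about 1 in 20. All 5 lay in sister clones, which were examined only for the set-apart genes, and none touched subclone 3. For Sirpa, replicate 1 of subclone 1 had 0.56 TPM against 0.1 to 0.11 in the other 3 libraries, replicate 4 of subclone 4 had 0.27 TPM against 0 to 0.01, and replicate 4 of subclone 5 had 0.02 TPM against 0 in each of the others. Igfbp4 had 0.84 TPM in replicate 2 of subclone 1 against 0.27 to 0.33. Rragd had 1.18 TPM in replicate 1 of subclone 4 against 1.53 to 1.59. Each of these values stayed outside the range of subclone 3, as every library of the sister clones did in the set-apart genes.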

How the results depend on the processing

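The 46 called genes kept their direction in each alternative fitted gene by gene (z-scores were counted only). The count of 46 (21 higher, 25 lower) became 93 (53 and 40) at a pseudocount of 0.1 TPM, 29 (13 and 16) at 1 TPM, 23 (10 and 13) with a mean of at least 5 TPM, 19 (11 and 8) with the 16 libraries as 1 group, 20 (11 and 9) by the unequal-variance test, 10 (6 and 4) with z-scores, and 425 (186 and 239) with no threshold on the difference. The z-score counts differ also because their limit was stricter and fewer genes entered. Values of log2(TPM) were divided by an SD of 2.11 to 2.22, so a difference of 1 demanded more than 2-fold. A gene listed at 0 in any subclone library, such as Sirpa or Zfp612, could not enter, which left 12108 genes. The higher genes numbered 36 without subclone 4 and 32 without subclone 5. Leaving out a library of subclone 3 gave 45 to 55 genes (23 to 29 higher, 22 to 31 lower), and of a sister clone 46 to 49. The 10 set-apart genes (6 higher, 4 lower) became 3 (0 higher) with a mean of at least 5 TPM and 46 (23 and 23) with no threshold, 4 (2 and 2) with z-scores, the lower ones became 7 without subclone 2, and leaving out a library gave 9 to 11. Leaving out a single library also cost the calls of Egr2 and Skap1 (without replicate 1 or 3 of subclone 3), Ccn1, Egr2, Hspa1a, Osr1 and Rasgrp2 (without replicate 2), Arc, Ccn1 and Frem2 (without replicate 3), Bcas1 (without replicate 4) and Osr1 (without replicate 4 of subclone 2 or replicate 2 of subclone 5). The calls lost without a whole sister clone numbered 7 of 44 tested for subclone 1, 3 of 46 for subclone 2, 7 of 43 for subclone 4 and 7 of 46 for subclone 5. All 10 set-apart genes were still called without any single library. They were also still called without any single sister clone, which for the 2-fold limit follows from their definition. WT5 lay below 0.25 on the line from the sister clones to subclone 3 for 9 of the 10 at each pseudocount and without any 1 library of WT5 or subclone 3, in alternatives chosen after seeing the data. Over all genes tested, replicate numbers did not pair the libraries. Deviations of same-numbered libraries correlated from -0.31 to 0.40, over 0.1 in 7 of 40 pairs. A fit with the replicate number as a block called the same 46 genes. TPM carries no depth, so values near 0 have no counting limit here.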
